A study of Mus musculus with 6 samples.

Results

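The imprinted genes described here are 52 gene symbols, matched by name, of the 23420 in the count table. They are well-known imprinted genes of the mouse and their neighbours, and they fall into 20 clusters or single loci. Of these, 28 had enough reads for the test, 16 had 0 counts in all 6 cultures, 5 had at most 3 counts in every culture, and 3 were too low for the test although they exceeded 3 counts in at least 1 culture. The share tested was 53.8% of the imprinted genes and 49.6% of all symbols, and the share at 0 throughout was 30.8% and 31.8%.

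The study asked how acetylation of integrin β1 alters transcription in endothelial cells. All cultures were eEnd2 cells, an endothelial line from mouse embryos, stably transfected with human integrin β1A carrying GFP in its extracellular part under a short human β-actin promoter. The chimera was wildtype in 3 cultures (β1-WT-GFP A, B and C, below WT) and carried the K794Q exchange, a glutamine for a lysine of its cytoplasmic tail that mimics the acetylated residue, in the other 3 (β1-K794Q-GFP A, B and C, below K794Q). Cells were sorted for GFP and subcultured, total RNA was depleted of ribosomal RNA, and no untransfected culture is among the samples used here. A GFPlow and a GFPhigh population were sorted, and the labels do not say from which of them a culture came. The p values measure the spread between these cultures, since nothing states that they came from separate transfections.

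In imprinted genes, DNA methylation set in the egg or the sperm marks the copies by parent, and the copy from a given parent is kept silent. The mark lies at imprinting control regions that act over whole clusters, often through a long noncoding RNA from the paternal copy, and it is kept in dividing cells by Dnmt1, Uhrf1 and zinc finger proteins such as Zfp57. Many imprinted genes set fetal growth, and in the fetal vasculature growth factors and growth-restraining genes of this class are prominent. Read counts do not separate the parental copies, so only the sum of both is reported, and the parental origin given below is general knowledge and not a measurement. In these bulk samples, fewer cells expressing a gene and less RNA per cell cannot be told apart.

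The totals ranged from 9589826 to 15287191 counts, and a count of 3, the limit that a count of 0 allows, corresponded to between 0.209 and 0.300 CPM, the unit of the normalized counts, which are scaled to a fixed library size. These limits cover counting error only. Endothelial markers were examined first. All 16 were tested, and none passed both thresholds (fold of at least 2 and unadjusted p of at most 0.05). Their summed level was 9110 to 17551 CPM in K794Q cultures and 10355 to 12547 CPM in WT cultures. Single markers varied within the groups. Sox17 had 97.6, 0.30 and 205 CPM in K794Q A, B and C and 17.9, 21.6 and 125 CPM in WT A, B and C. Cdh5 was highest in K794Q B, at 3994 CPM against 1409 and 1294 CPM in K794Q A and C. Vwf did not exceed 2.41 CPM. Mesenchymal markers summed to 2.58 to 3.75 CPM in K794Q cultures and 85.5 to 195 CPM in WT cultures, and 3 of the 10 were at 0 throughout. Of the 2 tested markers, Prrx1 was lower in K794Q cells, at no more than 0.0987 CPM. It made up most of the WT sum, at 183, 194 and 56.5 CPM in WT A, B and C. The other, Pdgfra, had 2.31, 0.30 and 0.95 CPM in K794Q A, B and C and 0.52, 0.70 and 16.4 CPM in WT A, B and C. The part of the mesenchymal markers in the results was not tested. Blood markers summed to 31.0 to 103 CPM in K794Q cultures and 37.5 to 88.6 CPM in WT cultures, nearly all from Cd68. Ptprc was at 0 in 5 of the 6 cultures and Cd3e in all 6, while Spi1 and Hbb-bs were not in the table. Epithelial and pluripotency or germ cell markers stayed at or below 0.592 CPM. WT C and K794Q B stood apart from the other cultures of their groups. Between WT A and WT B 0.198% of the tested genes differed at least 2-fold, against 21.3% and 20.3% between these and WT C. Between K794Q A and K794Q C 6.86% differed, against 15.4% and 20.3% between these and K794Q B. All pairs within a group differed by more than counting error, with chi-square values of at least 10.2 per degree of freedom.

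Promoter sequence is shown for 5 of the genes whose levels separated the groups, since the methylation that carries imprints sits on CG pairs. They are Zrsr1, which was read in K794Q cells only, the sense and antisense pair Igf2r and Airn, and the genes that were lower in K794Q cells, Grb10 and Mest. The promoters of Cd81, Tssc4 and Ube3a are not shown. The 250 bases before the transcription start come from RefSeq (GRCm38.p6), 5′ to 3′ on the gene's strand, with each CG in capitals. Zrsr1 (chr11:22971755-22972004, + strand), Airn (chr17:12741061-12741310, + strand), Igf2r (chr17:12769707-12769956, − strand), Grb10 (chr11:12027972-12028221 for the promoter called 1 and chr11:12037421-12037670 for the promoter called 2, − strand) and Mest (chr6:30733256-30733505 for 1 and chr6:30737800-30738049 for 2, + strand) read as follows.
Zrsr1: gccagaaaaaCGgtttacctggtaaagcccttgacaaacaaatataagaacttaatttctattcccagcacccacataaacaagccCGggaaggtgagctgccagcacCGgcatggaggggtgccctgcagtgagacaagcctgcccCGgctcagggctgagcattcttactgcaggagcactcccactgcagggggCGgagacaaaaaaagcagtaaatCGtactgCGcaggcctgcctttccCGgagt
Airn: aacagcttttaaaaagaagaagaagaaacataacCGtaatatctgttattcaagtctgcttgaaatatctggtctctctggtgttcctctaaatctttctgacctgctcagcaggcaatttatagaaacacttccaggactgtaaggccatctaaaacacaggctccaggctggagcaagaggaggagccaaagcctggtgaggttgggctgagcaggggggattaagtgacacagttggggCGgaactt
Igf2r: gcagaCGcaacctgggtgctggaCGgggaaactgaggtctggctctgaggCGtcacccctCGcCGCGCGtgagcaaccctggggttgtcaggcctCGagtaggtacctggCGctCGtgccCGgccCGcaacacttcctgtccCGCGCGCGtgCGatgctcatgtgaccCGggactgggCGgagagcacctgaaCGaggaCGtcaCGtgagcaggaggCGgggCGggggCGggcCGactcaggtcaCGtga
Grb10 promoter 1: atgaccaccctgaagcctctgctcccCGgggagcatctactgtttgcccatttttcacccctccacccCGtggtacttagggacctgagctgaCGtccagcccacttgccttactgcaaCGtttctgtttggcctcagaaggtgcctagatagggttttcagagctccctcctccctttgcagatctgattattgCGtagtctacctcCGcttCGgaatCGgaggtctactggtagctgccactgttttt
Grb10 promoter 2: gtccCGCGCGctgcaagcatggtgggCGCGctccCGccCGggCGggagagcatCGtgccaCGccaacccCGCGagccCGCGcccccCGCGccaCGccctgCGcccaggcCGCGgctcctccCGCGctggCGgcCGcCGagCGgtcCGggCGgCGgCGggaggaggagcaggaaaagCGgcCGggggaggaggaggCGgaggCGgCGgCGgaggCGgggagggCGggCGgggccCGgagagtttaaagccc
Mest promoter 1: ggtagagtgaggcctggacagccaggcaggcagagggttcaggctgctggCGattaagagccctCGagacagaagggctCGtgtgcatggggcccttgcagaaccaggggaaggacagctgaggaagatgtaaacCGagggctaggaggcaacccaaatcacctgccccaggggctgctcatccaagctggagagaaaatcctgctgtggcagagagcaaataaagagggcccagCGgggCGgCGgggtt
Mest promoter 2: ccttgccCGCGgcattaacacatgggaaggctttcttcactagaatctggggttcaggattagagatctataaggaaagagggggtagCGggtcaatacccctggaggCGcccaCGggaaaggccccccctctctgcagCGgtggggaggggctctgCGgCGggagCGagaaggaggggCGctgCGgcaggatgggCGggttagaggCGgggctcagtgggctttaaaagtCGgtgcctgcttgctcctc
The 2 Grb10 promoters differed most, with 8 and 40 CG pairs. Zrsr1 held 8, Airn 2, its antisense partner Igf2r 27, and the Mest promoters 7 and 14. Promoter sequence was matched for 41 of the 52 genes, with 64 promoters in all, several genes having more than 1. Their median was 13 CG pairs, against 6 over 32851 promoters of 27025 genes, and 49 of the 64 lay above that median of 6, as did 46.3% of all promoters. The letters TGCCGC, read on both strands (GCGGCA on the other), are the core that Zfp57 recognises when its CG is methylated. They occurred in 9 of the 64 promoters (14.1%) and in 8.68% of all promoters. Mest promoter 2 held them 2 times, and the 5 promoters matched for called genes (Zrsr1, Airn, Tssc4 and both of Grb10) held none. A match is a description of the letters and not a binding site.

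K794Q and WT cells differed in 6 of the tested imprinted genes. Zrsr1 was read in every K794Q culture and in no WT culture, Tssc4, Airn, Peg10 and Peg13 were higher in K794Q cells, and Grb10, an adaptor that restrains insulin and IGF receptor signalling, was lower. These 6 of the 28 tested genes (21.4%) passed a fold change of at least 2 with an unadjusted p of at most 0.05 in edgeR's quasi-likelihood F-test, as did 5.19% of the 11608 genes tested. The list was chosen with earlier results of these data known, so the difference between these shares is a description and was not tested. The increases were 5 genes, against 3.48% of all genes, and the decrease was 1 gene, against 1.71%. An unadjusted p of at most 0.05 was reached by 7 imprinted genes (25%), Cd81 being the further one, and by 10.2% of all genes. An adjusted p of at most 0.05 was reached by 0 of the 28 in this test and by 21 of all genes (0.181%). DESeq2 gave 2 imprinted genes at that level, Grb10 and Zrsr1, and edgeR's likelihood ratio test gave 3. The lowest adjusted p among the 28 was 0.0955, for Zrsr1 (edgeR, Benjamini-Hochberg over all tested genes).

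The changes had no common direction. The median log2 fold change (K794Q over WT) was 0.04 over the 28 genes and −0.02 over all tested genes, with 15 genes higher and 13 lower. Of the 13 tested genes listed as expressed from the paternal copy, 4 rose and none fell past both thresholds, with a median of −0.16. Over all tested genes 3.48% rose and 1.71% fell by the same rule. Among the 4 that rose, Peg10 passed neither threshold without K794Q B, at 0.26. Of the 14 listed as expressed from the maternal copy, 1 rose and 1 fell past both thresholds, with a median of 0.09. The listing is general knowledge and need not hold in these cells, Ube3a for example being imprinted in neurons. The 3 K794Q cultures lay entirely above or below the 3 WT cultures for 9 of the 28 genes (32.1%), as for 16.6% of all genes. The 7 genes with K794Q above (25%, all genes 8.45%) were Zrsr1, Cd81, Tssc4, Ube3a, Igf2r, Airn and Peg13, and the 2 with K794Q below (7.14%, all genes 8.12%) were Mest and Grb10. An exact two-sided permutation test of 3 against 3 cultures cannot give a p below 0.1, which is the value for each of these 9.

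**Figure D1:**
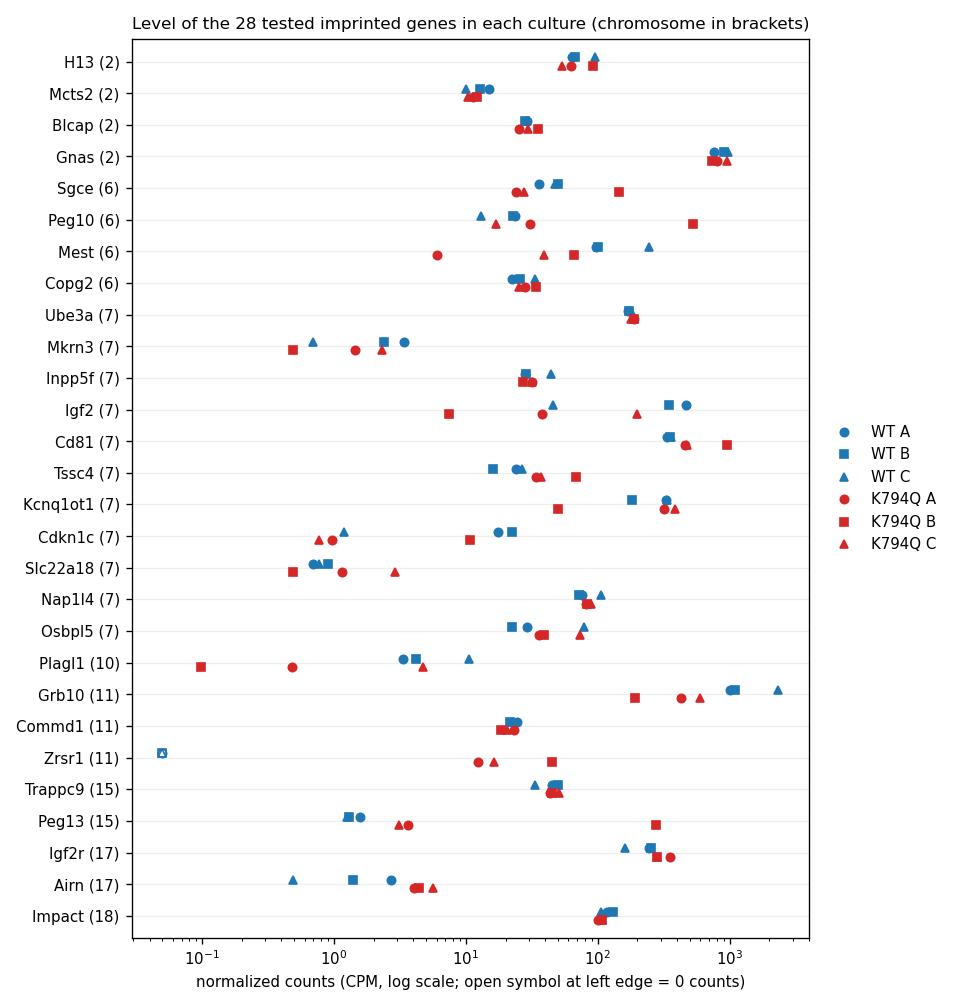
Level of the 28 tested imprinted genes in each culture, in normalized counts (CPM) on a log axis, with WT cultures in blue above K794Q cultures in red and symbols for cultures A, B and C. Open symbols at the left edge stand for 0 counts, as for Zrsr1 in all WT cultures, while Peg10 at 530 CPM and Peg13 at 277 CPM show K794Q B far to the right of every other culture.

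**Figure D2:**
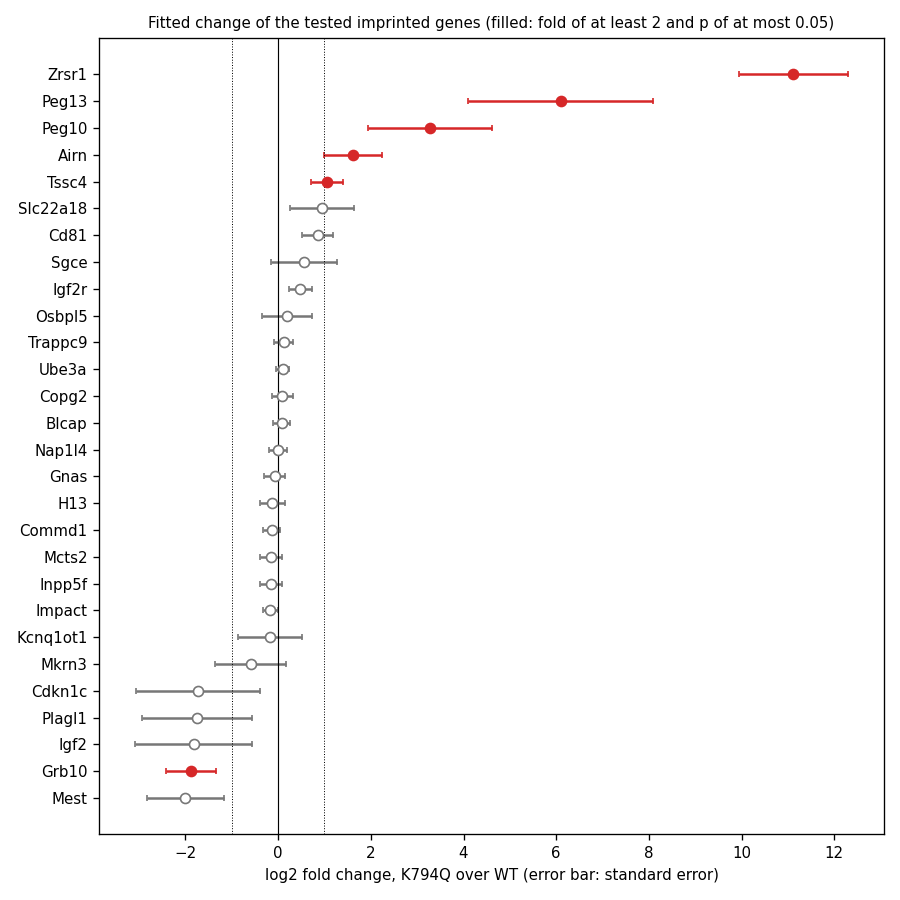
Fitted log2 fold change of K794Q over WT for the 28 tested imprinted genes, ordered by size, with error bars of 1 standard error and dotted lines at a fold of 2. The 6 filled points passed both thresholds, and 11 genes with nearly flat levels sit close to 0 with short error bars.

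Zrsr1 encodes a protein that helps recognise 3′ splice sites of the minor introns. It is a paternally expressed retrogene on chromosome 11 (chr11:22972005-22976496, GRCm38, GENCODE M21, + strand) within the span of Commd1, which lies on the other strand. Its levels were 12.3, 44.8 and 16.4 CPM in K794Q A, B and C, from 128, 454 and 191 counts, and 0 counts in each of WT A, B and C. All K794Q cultures lay above all WT cultures. The mean of the K794Q cultures was at least 81.8-fold higher than a level of 3 counts in the shallowest WT library, and at least 47.9-fold higher without K794Q B. The lowest K794Q culture alone was at least 41.1-fold higher. The test gave an unadjusted p of 4.8e-04, and its fitted log2 fold change of 11.12 is no bound, since it rests on a group at 0.

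The host gene Commd1, which acts in copper handling and NF-κB control, had 23.4, 18.5 and 20.5 CPM in K794Q cultures and 24.4, 21.6 and 22.7 CPM in WT cultures. The groups overlapped, with a log2 fold change of −0.14 ± 0.19 (SE). Exons of the 2 genes overlap over 9.17% of the Zrsr1 exon bases, and whether the counting used strand is not given in the sources used here. The X-linked paralog Zrsr2 lay between 34.5 and 52.7 CPM in all cultures, with a log2 fold change of −0.14 ± 0.20. Of the 10 tested neighbours of the Zrsr1 locus, 1 passed both thresholds. This was Fam161a, 25.1 kb away, at 4.24, 3.95 and 7.05 CPM in K794Q cultures and 1.57, 0.90 and 0.56 CPM in WT cultures, with a log2 fold change of 2.33 ± 0.52 (adjusted p = 0.172, edgeR). The median over the 10 neighbours was 0.20.

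Igf2 is the main fetal growth factor of this group and is read from the paternal copy, while H19, the growth-restraining long noncoding RNA beside it, is read from the maternal copy. Igf2 had 37.5, 7.40 and 199 CPM in K794Q A, B and C and 470, 346 and 45.5 CPM in WT A, B and C. The highest K794Q culture was above the lowest WT culture, and the 6 cultures spanned 63.5-fold. The log2 fold change was −1.82 ± 1.27 (adjusted p = 0.738, edgeR), and WT C was 8.97-fold below the mean of WT A and WT B. Without K794Q C the change was −3.67 and passed both thresholds. H19 had 0 counts in all 6 cultures. In GENCODE M21 9.15% of the H19 exon bases are shared with other genes, and 3.41% with another gene of the table. Of the Igf2 exon bases 64.5% are shared with other genes of GENCODE M21. Reads on such shared bases may have gone uncounted.

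Igf2r encodes the receptor that takes IGF2 to the lysosome, and it is silenced on the paternal copy through the antisense RNA Airn, whose start lies inside the gene on the opposite strand. Igf2r had 356, 280 and 282 CPM in K794Q cultures and 245, 255 and 160 CPM in WT cultures. The K794Q cultures were all higher, by a log2 fold change of 0.48 ± 0.25 (adjusted p = 0.614, edgeR), past neither threshold. Airn itself had 4.04, 4.44 and 5.68 CPM in K794Q cultures and 2.71, 1.40 and 0.49 CPM in WT cultures. It rose by a log2 fold change of 1.62 ± 0.63 (adjusted p = 0.441, edgeR). The change was 1.20 without WT C, where it passed, and 1.68 without K794Q B, where its unadjusted p of 0.061 did not. It also missed the p threshold without K794Q A, K794Q C or WT B. The sense and the antisense transcript were thus both higher in the K794Q cultures, and in GENCODE M21 their exons share no base.

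Grb10, maternally expressed in most tissues, was the only imprinted gene that fell past both thresholds. It had 427, 191 and 592 CPM in K794Q A, B and C and 1008, 1093 and 2343 CPM in WT A, B and C. Every K794Q culture was lower than every WT culture, and the WT mean was 3.67-fold the K794Q mean. The log2 fold change was −1.88 ± 0.54 (adjusted p = 0.287, edgeR). It was −1.54 without K794Q B and −1.37 without WT C, and past both thresholds in each of these fits. Per length of exon (counts per exon kilobase on the CPM scale, FPKM), Grb10 was the imprinted gene with the highest mean level in WT cells at 163 FPKM, ahead of Cd81 at 121 and Gnas at 78.5, and it stood at 44.4 FPKM in K794Q cells.

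Mest is a paternally expressed gene of the mesoderm that marks growing fetal tissue. It had 6.07, 65.7 and 39.2 CPM in K794Q cultures and 97.7, 101 and 245 CPM in WT cultures, with no overlap of the groups. The log2 fold change was −2.001 ± 0.834, and the unadjusted p of 0.0513 missed the threshold narrowly (adjusted p = 0.495, edgeR). The change was −2.71 without K794Q B and −1.50 without K794Q A, past both thresholds each time, and −1.42 without WT C, where it did not pass. Its neighbour Copg2, a coat protein of transport vesicles, lay between 22.5 and 34.0 CPM in all cultures, with a log2 fold change of 0.09 ± 0.23. Their 3′ exons overlap on opposite strands, over 23.1% of the Mest exon bases.

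Plagl1, a zinc finger factor that acts on other imprinted genes, and Cdkn1c, the p57 inhibitor of cyclin-dependent kinases, both had lower means in K794Q cells, and both varied widely. Plagl1 had 0.48, 0.10 and 4.73 CPM in K794Q cultures and 3.32, 4.20 and 10.5 CPM in WT cultures. K794Q C overlapped the WT cultures, and the log2 fold change of −1.75 ± 1.19 did not pass (adjusted p = 0.727, edgeR), while without K794Q C it was −4.32 and passed both thresholds. Cdkn1c had 0.96, 10.8 and 0.77 CPM in K794Q cultures and 17.6, 22.6 and 1.18 CPM in WT cultures. Its deviating cultures were K794Q B, 12.4-fold above the mean of K794Q A and C, and WT C, 17.0-fold below the mean of WT A and B. The log2 fold change was −1.73 ± 1.33 (adjusted p = 0.766, edgeR), and −3.96 without K794Q B, where it passed both thresholds.

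Cdkn1c lies in the Kcnq1ot1 cluster on distal chromosome 7, where the paternally read antisense RNA Kcnq1ot1 keeps the surrounding genes of its own copy silent. Kcnq1ot1 had 320, 50.4 and 384 CPM in K794Q A, B and C and 332, 183 and 338 CPM in WT A, B and C. K794Q B was the lowest culture, 6.98-fold below the mean of K794Q A and C, and WT B was the next lowest. Over the groups the log2 fold change was −0.18 ± 0.70, and 0.31 without K794Q B, neither past the test. Several genes around it were highest in K794Q B, where the RNA was lowest. With 1 culture of this kind, this is a description without a test.

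Cd81, a tetraspanin of the cell surface, had 458, 961 and 473 CPM in K794Q cultures and 337, 354 and 358 CPM in WT cultures. All K794Q cultures were higher, with a log2 fold change of 0.85 ± 0.34 (adjusted p = 0.463, edgeR). The change was 0.42 without K794Q B, and 1.03 without K794Q A and 1.02 without K794Q C, where it passed both thresholds. Tssc4, which takes part in the assembly of spliceosomal particles, had 33.9, 68.5 and 37.1 CPM in K794Q cultures and 24.1, 16.1 and 26.9 CPM in WT cultures. It rose by a log2 fold change of 1.06 ± 0.35 (adjusted p = 0.357, edgeR). Without K794Q B the change was 0.67 and past neither threshold, and without WT C it was 1.22 and past both. Without WT B it was 0.87 and again past neither. Of its exon bases 11.9% overlap those of Trpm5, itself at no more than 28 counts. Kcnq1, the potassium channel gene across whose span Kcnq1ot1 is transcribed, belongs to the further imprinted genes. It had 6.16, 254 and 6.11 CPM in K794Q cultures and 5.95, 5.40 and 1.18 CPM in WT cultures, so K794Q B was 51.2-fold above the mean of the other 5 cultures.

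The genes at the far side of the cluster did not share this pattern. Nap1l4, a histone chaperone, lay between 72.6 and 106 CPM in all cultures with a log2 fold change of 0.00 ± 0.19. Osbpl5, a lipid exchange protein, lay between 22.6 and 78.3 CPM, with the highest levels in WT C and K794Q C. Slc22a18, a membrane transporter, did not exceed 2.92 CPM. The placental genes Phlda2 and Ascl2 had at most 2 counts in any culture.

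**Figure D3:**
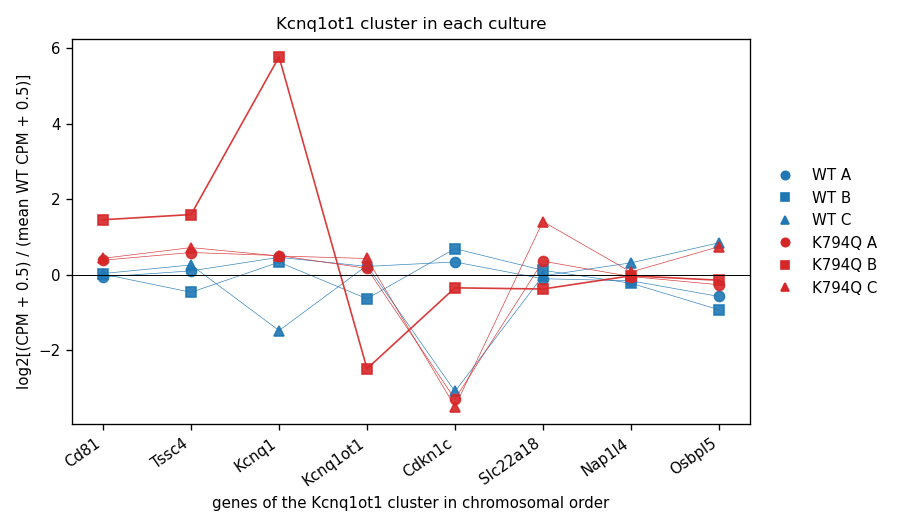
Genes of the Kcnq1ot1 cluster in chromosomal order, each culture shown as log2 of its CPM + 0.5 over the mean WT CPM + 0.5, WT cultures in blue and K794Q cultures in red. K794Q B (red squares, heavier line) has the lowest Kcnq1ot1 and the highest Cd81, Tssc4 and Kcnq1, while Cdkn1c is low in K794Q A, K794Q C and WT C.

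K794Q B was also the highest culture for the paternally expressed Peg10, Sgce and Peg13 on other chromosomes. Other genes listed as paternally expressed, namely Igf2, Plagl1, Mkrn3, Inpp5f and Kcnq1ot1, were lowest in K794Q B. Peg10, a retrotransposon-derived gene needed for the placenta, had 30.4, 530 and 16.9 CPM in K794Q A, B and C and 23.8, 22.7 and 13.02 CPM in WT A, B and C. K794Q B was 17.4-fold above the next culture and the remaining 5 overlapped. Peg10 passed both thresholds with a log2 fold change of 3.28 ± 1.34 (adjusted p = 0.480, edgeR), but without K794Q B it passed neither, at 0.26. Without WT C, at 3.05, and without WT A or WT B it missed the p threshold. Sgce, which encodes ε-sarcoglycan and starts beside Peg10 in the opposite direction, had 24.2, 146 and 27.4 CPM in K794Q cultures and 35.7, 50.2 and 47.8 CPM in WT cultures. It too was highest in K794Q B, while K794Q A and C lay below all WT cultures, and the log2 fold change was 0.56 ± 0.71.

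Peg13, a long noncoding RNA on chromosome 15 within the span of Trappc9, had 3.66, 277 and 3.10 CPM in K794Q cultures and 1.57, 1.30 and 1.25 CPM in WT cultures. All K794Q cultures were above all WT cultures, and K794Q B was 75.8-fold above the next. The log2 fold change was 6.09 ± 2.00 (adjusted p = 0.355, edgeR). Without K794Q B it was 1.29 and still past both thresholds, and without WT C it was 6.03 with an unadjusted p of 0.0684. The p threshold was also missed without WT A or WT B. The host gene Trappc9, a subunit of a vesicle tethering complex, lay between 33.4 and 50.7 CPM in all cultures, with a log2 fold change of 0.12 ± 0.20. Among the 28 genes, K794Q B was the highest culture for 9 and the lowest for 9, and it exceeded the next culture at least 2-fold for 5 (Zrsr1, Cd81, Sgce, Peg10 and Peg13). The same counts over all tested genes are not given. K794Q B stood apart over all genes too, with 15.4% at least 2-fold apart from K794Q A and 20.3% from K794Q C.

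The remaining tested genes were nearly flat. Over the 6 cultures 11 genes stayed within a 2-fold range, namely Commd1, Copg2, Nap1l4, Ube3a, Blcap, Gnas, Impact, Trappc9, H13, Mcts2 and Inpp5f. Gnas, the stimulatory G protein α subunit, which is read from both copies in most tissues, had 799, 742 and 956 CPM in K794Q cultures and 760, 906 and 969 CPM in WT cultures, with overlapping groups and a log2 fold change of −0.08 ± 0.23. Ube3a, a ubiquitin ligase imprinted in neurons, had 188, 189 and 179 CPM in K794Q cultures and 171, 172 and 177 CPM in WT cultures. The groups did not overlap, but the log2 fold change was 0.10 ± 0.15 (adjusted p = 0.903, edgeR). At the other end 8 genes spanned at least 10-fold, namely Igf2, Mest, Plagl1, Grb10, Cdkn1c, Airn, Peg10 and Peg13, and Zrsr1 had no finite range. In between lay 8 genes, among them the makorin Mkrn3, which did not exceed 3.41 CPM. The shares of all tested genes in these ranges are not given.

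Large differences were common between cultures of the same group too. Between K794Q B and K794Q C, 12 of the 28 imprinted genes (42.9%) were at least 2-fold apart on the CPM + 1 scale, against 20.3% of all genes, and between K794Q A and B it was 10 (35.7%), against 15.4%. Between WT A and WT C it was 8 (28.6%), against 21.3%, and between WT A and WT B none of the 28. The share of imprinted genes was above the share of all genes in every pair except WT A and WT B. No test was made of this difference, and the pairs share cultures.

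**Figure D4:**
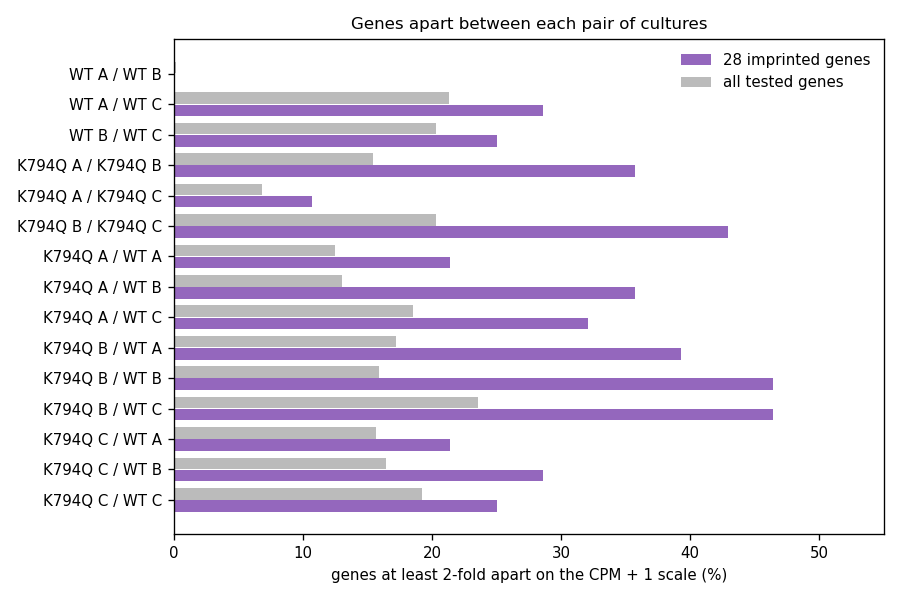
Share of genes at least 2-fold apart on the CPM + 1 scale for each pair of the 6 cultures, with purple bars for the 28 imprinted genes and grey bars for all 11608 tested genes. The purple bar is the longer in all pairs but WT A and WT B, and it reaches 46.4% between K794Q B and WT B or C.

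Most genes of some imprinted clusters had no reads. In the Dlk1-Meg3 cluster on chromosome 12, which holds the Notch-like ligand Dlk1, the noncoding RNAs Meg3, Rian and Mirg and the retrotransposon-derived Rtl1, these 5 genes had 0 counts in all 6 cultures, and Begain had 1 count in 1 culture. In the Prader-Willi and Angelman region on chromosome 7, Snrpn, Snurf and Magel2 had 0 counts and Ndn 1 count, beside the flat Ube3a and the low Mkrn3. All of the Snurf exon bases are shared with Snrpn in GENCODE M21, and reads on bases shared by 2 genes may have gone uncounted. Of the Snrpn exon bases 34.1% are shared with other genes of GENCODE M21, and 10.0% with other genes of the table, so the same holds for part of Snrpn. Nnat, Nespas, Asb4, Rasgrf1, Dcn, Zdbf2 and Zim1 were at 0 as well, and a count of 0 allows up to 0.300 CPM in the shallowest library. Of the Nespas exon bases 31.4% are shared with Gnas, so for Nespas too reads may have gone uncounted.

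Peg3, the zinc finger gene of the proximal chromosome 7 cluster, had 7 counts in K794Q B, 1 in WT C and none elsewhere, and its neighbour Usp29 had 1 count in K794Q C. Peg12 had 7, 0 and 11 counts in K794Q cultures and 0, 1 and 2 counts in WT cultures. Ppp1r9a, of the Peg10 cluster, had 5, 3 and 6 counts in K794Q cultures and 23, 11 and 1 counts in WT cultures. These 3 genes were below the filter and were not tested.

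A list of 45 further imprinted genes of the mouse was examined as well. Of these, 41 were in the table, 21 were tested and 2 (9.52%, all genes 5.19%) passed both thresholds, both higher in K794Q cells, with a median log2 fold change of 0.02. Kcnq1, given above, had a log2 fold change of 4.42 ± 1.70 (adjusted p = 0.441, edgeR), which was 0.57 without K794Q B and passed neither threshold. It also missed the p threshold without any of the WT cultures. Rhox5, an X-linked homeobox gene of placenta and testis, had 93.4, 0.69 and 67.0 CPM in K794Q A, B and C and 1.40, 1.10 and 1.39 CPM in WT A, B and C. It was high in K794Q A and C only, with K794Q B below the WT cultures, and its log2 fold change was 5.35 ± 1.5 (adjusted p = 0.273, edgeR). At 0 counts throughout were 14 of the 41.

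Genes whose products act on imprints or on DNA methylation were also examined. Of 30 listed, 26 were tested and 1 (3.85%) passed both thresholds, with a median log2 fold change of 0.09. This was Tet1, an enzyme that oxidises methylated cytosine, with 0, 1.28 and 0 CPM in K794Q cultures and 7.79, 6.90 and 6.82 CPM in WT cultures. It fell by a log2 fold change of −4.06 ± 1.32 (adjusted p = 0.351, edgeR), and without WT A it missed the p threshold with an unadjusted p of 0.0516. Some genes were singled out after their values were seen. Dnmt1, the maintenance methyltransferase, had 322, 93.6 and 399 CPM in K794Q cultures and 95.4, 78.9 and 185 CPM in WT cultures, with a log2 fold change of 1.18 ± 0.59 that did not pass (adjusted p = 0.598, edgeR). It passed both thresholds without K794Q B, at 1.59, and without WT C, at 1.65, and also with DESeq2. Zfp57 had 37.1, 36.7 and 47.4 CPM in K794Q cultures and 67.4, 63.6 and 39.9 CPM in WT cultures, with overlapping groups and a log2 fold change of −0.50 ± 0.25. Trim28, the corepressor that Zfp57 recruits, lay between 164 and 282 CPM with a log2 fold change of −0.18 ± 0.23.

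The genes beside the imprinted clusters were mostly level. Around the 20 loci, the 5 nearest tested genes on each side that are not imprinted genes of the first list numbered 196 in all, with 7 higher and 4 lower past both thresholds (5.61%, all genes 5.19%) and a median log2 fold change of 0.04. Around Grb10 the median of 10 neighbours was 0.37 with none past the thresholds, and around Peg10, Igf2r and Peg13 it was −0.04, −0.02 and −0.13. Such neighbours lay up to 4.93 Mb away around Grb10 and up to 5.67 Mb away around Peg13. The largest median was at the Dcn locus on chromosome 10, where Dcn itself had no reads. The median of its 10 neighbours was 0.88, with K794Q A, B and C at 0.83, 0.86 and 0.56 on the log2 scale relative to the WT mean. Single cultures departed elsewhere too, as around Igf2 and H19, where K794Q A, B and C were at −0.10, 0.71 and −0.42.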

How the data were processed

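The study sequenced ribosomal-RNA-depleted total RNA of 3 β1-WT-GFP and 3 β1-K794Q-GFP cultures. The deposited values are raw counts, 1 row for each mouse gene symbol, which the authors obtained, per the labels, with bcl2fastq 2.20.0, STAR 2.7.4a and HTSeq 0.9.1 on mm10 and analysed with edgeR 3.38.4. The annotation and the strand setting of the counting are not given in the sources used here. The table held 0 further sample columns. Groups and culture letters came from the sample titles.

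Testing used edgeR 4.0.16 (R 4.3.3). After filterByExpr and TMM scaling, K794Q was compared with WT by the quasi-likelihood F-test (two-sided, common dispersion 0.186). Normalized counts are CPM on the TMM-scaled totals. Calls needed a fold of 2 or more together with a p, before adjustment, no larger than 0.05, which are the study's thresholds, and Benjamini-Hochberg adjustment was over all 11608 tested genes. The standard error is the log2 fold change divided by the square root of F. Totals and the level of 3 counts are given with the results. FPKM used the union of exons of GENCODE M21 (GRCm38). Symbols matched its genes directly for 21737 and by a synonym for 1275, and all 52 imprinted genes had a position. DESeq2 1.42.0 and the other alternatives are listed in the closing section. The fits were tested on simulated counts first. Tables were built with Python 3.11.15, and the packages were matplotlib 3.10.9, scipy 1.17.1, pandas 2.3.3 and, for arrays, numpy 2.4.6.

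The imprinted genes and the further lists were chosen with earlier results of these data known. Values in every culture are given for called imprinted genes, for those whose groups did not overlap with a mean of at least 1 CPM in a group, and for the best known genes of each cluster (H19, Igf2, Meg3, Rian, Dlk1, Peg3, Cdkn1c, Kcnq1ot1, Igf2r, Grb10, Mest, Plagl1, Snrpn, Ndn, Gnas, Commd1 and Zrsr1) where tested. Of the further lists, the called genes are named.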

Additional observations from a re-analysis of the deposited data

How the results depend on the processing

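The tests were repeated without a filter on low counts, with at least 10 counts in every culture, with RLE normalization, with DESeq2, with edgeR's likelihood ratio test, with the culture letter as a replicate block, and without each culture in turn. Of the 186 values of the 16 named imprinted genes under these alternatives, 153 kept their direction and side of the thresholds, 13 newly passed them, 17 no longer passed and 3 changed sign. The fold change of Grb10 passed in all 12 alternatives and that of Zrsr1 in all 11 where it could be tested, at least 10 counts in every culture leaving it out. Airn was lost in 5 of 11, Peg10 in 5 of 11, Peg13 in 4 of 11 and Tssc4 in 3 of 12, and Mest was gained in 7 of 12. DESeq2 gave no p for Peg10 and Peg13, which were not counted as lost.

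The number of imprinted genes past both thresholds was 4 (Grb10, Mest, Plagl1 and Zrsr1) with the replicate block, and without 1 culture it ranged from 2 without WT B to 8 without K794Q C. Over all genes it was 571 with the block and 916 without the filter, and without 1 culture it ranged from 501 to 992, with 942 without K794Q B and 992 without WT C. Of the further imprinted genes, 1 passed at 10 counts in every culture, a filter that left Rhox5 out of the test. With DESeq2 1 passed, and with the block 0. Without 1 culture between 1 and 2 passed, Kcnq1 being lost without K794Q B or any WT culture. Kcnq1 was replaced in the count by Pde4d without K794Q B and by Ano1 without WT C. DESeq2 gave no p for Kcnq1. Of the genes that act on imprints or DNA methylation, 0 passed at 10 counts in every culture, a filter that left Tet1 out of the test. With DESeq2 2 passed, and with the block 3. Between 0 (without WT A) and 3 (without K794Q B or WT C) passed without 1 culture. The gains were Dnmt1 and Hells (Dnmt1 alone with DESeq2). Imprinted genes at an adjusted p of at most 0.05 numbered 2 with DESeq2, 3 with the likelihood ratio test and between 0 and 1 without 1 culture, Zrsr1 passing without K794Q B. Apart from genes that a filter left out or that had no p, the cause of these moves was not tested.

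The changes of sign were those of Kcnq1ot1 without K794Q B (0.31, within a range of −0.62 to 0.31 without 1 culture) and of Gnas without K794Q B (0.0015) and without WT C (0.0104), within −0.19 to 0.0104. Whether the letters pair the cultures was not tested. Deviations from the group means correlated over genes by 0.120 (A), 0.0558 (B) and 0.109 (C) between cultures of the same letter. Between cultures of different letters the correlations ran from −0.171 (K794Q C with WT B) to 0.126 (K794Q A with WT B). Only the latter pair was positive. For the genes at 0 counts, depth set the limit, except where reads on bases shared with another gene may have gone uncounted, as for Snurf, Snrpn and Nespas.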

Other observations

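Trpm5, a cation channel gene of the Kcnq1ot1 cluster, was also highest in K794Q B. It had 2.76 CPM there, from 28 counts, 0.10 CPM in K794Q A, 0.09 CPM in WT A and none in the other 3 cultures. It was too low for the test, and its exons overlap those of Tssc4 on the opposite strand.

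Of the 196 genes beside the imprinted loci, Zfp521, a zinc finger gene 694 kb from Impact, had the lowest p. Its levels were 33.8, 63.6 and 51.3 CPM in K794Q cultures and 145, 147 and 143 CPM in WT cultures, with a log2 fold change of −1.55 ± 0.25 (adjusted p = 0.0955 in edgeR's quasi-likelihood test). Impact itself, an inhibitor of the kinase Gcn2, lay between 101 and 130 CPM with a log2 fold change of −0.17 ± 0.15. Zfp521 was chosen after its values were seen.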
